A study of Mus musculus with 3 samples.

Results

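The transcripts described here belong to 31 mouse genes of glucose uptake, glycolysis, lactate handling, pyruvate dehydrogenase control and the pentose phosphate pathway. They were taken by gene symbol from a list of enzymes and transporters and are 31 of the 20886 genes that could be named on the array. All 31 had at least 1 probe, 47 of the 39429 probes in all. RNA came from primary cultures that the labels call endothelial cells of the penile corpus cavernosum, a spongy erectile tissue, of C57BL/6 mice. All cells were kept for 48 h in the same medium with serum, heparin, antibiotics and vascular endothelial growth factor A, and differed in what was added to it. One group had normal glucose (5 mmol as labelled), another had high glucose (30 mmol), and the last had high glucose (30 mmol) with DKK2 protein (Dickkopf 2, which is secreted and binds Wnt co-receptors), whose dose the labels leave out. Each group was represented by a pool of RNA from 3 samples on 1 one-colour Agilent array, so 3 arrays gave 3 comparisons with no replicate and no p-value, and each array served in more than 1 comparison.

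Glycolysis splits glucose into pyruvate in the cytosol, with hexokinase, phosphofructokinase and pyruvate kinase as the steps under tightest control. Endothelial cells are known to take most of their energy from glycolysis and to pass much of the pyruvate on to lactate, which leaves the cell through monocarboxylate transporters. The pentose phosphate pathway branches off at glucose 6-phosphate and supplies NADPH and ribose, and pyruvate dehydrogenase kinases hold back the entry of pyruvate into mitochondria.

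The arrays differed in brightness. The 75th percentile of processed signal over probes was lowest on the normal glucose array, at 1201, and was 2380 on the high glucose array and 2417 on the DKK2 array. For that reason each probe's signal is given below as a multiple of that percentile on its own array, called the relative signal. Relative signals are compared between arrays for 1 gene and never between genes, since probes differ in how they hybridise. The technical error of a log2 difference between arrays, from the scanner's error model, had a median SD of 0.20, and it holds no variation between cultures. All arrays lay on one slide, and where an array lay on it and its condition cannot be told apart. Of 10 endothelial markers, 9 were well above background in normal glucose and 10 on each other array, with Emcn the exception. Markers of other cells were also above background on every array. They included 8 of 8 fibroblast genes and 8 of 8 macrophage genes that have a named probe. Of all probes 76.6%, 84.7% and 83.9% passed this cut on the normal glucose, high glucose and DKK2 arrays. Each marker's probe was chosen as its brightest and had to exceed background on 1 or more arrays. The marker counts thus say little about cell identity.

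With DKK2 in high glucose, 8 of the 31 genes were at least 2-fold higher than in high glucose alone and 0 were at least 2-fold lower. Over all 17825 genes measured on both arrays, 5.08% were at least 2-fold higher and 4.85% at least 2-fold lower. The 8 genes were the glucose transporter gene Slc2a1, the hexokinase genes Hk2 and Hkdc1, the aldolase gene Aldoc, the phosphoglycerate kinase gene Pgk1, the pyruvate kinase gene Pkm, the lactate exporter gene Slc16a3 and the transaldolase gene Taldo1. The median log2 difference of the 31 genes was 0.48, against 0.08 over all genes, and 25 of 31 lay above 0, where 57.6% of all genes did, although Pfkm and Pdha1, at 0.02 and 0.01, changed side under some scalings. Between high and normal glucose the picture was different: 0 of 30 measured genes were at least 2-fold higher, where 2.67% of 16766 genes were, and 1 was at least 2-fold lower, the phosphofructokinase gene Pfkl, where 5.73% were. Of these 30 genes 14 lay above 0, where 56.4% of all genes did, and Hk1, Slc16a1 and Tkt changed side under an alternative. Their median was -0.11 against 0.09 over all genes, but with normexp, another background correction, it was -0.09 against -0.26. The order of both medians thus turned with the correction. Normexp as run added the same offset of 50 to every array before scaling. That offset is larger relative to the 75th percentile of the dimmer normal glucose array, so dim genes are drawn down against it.

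**Figure D1:**
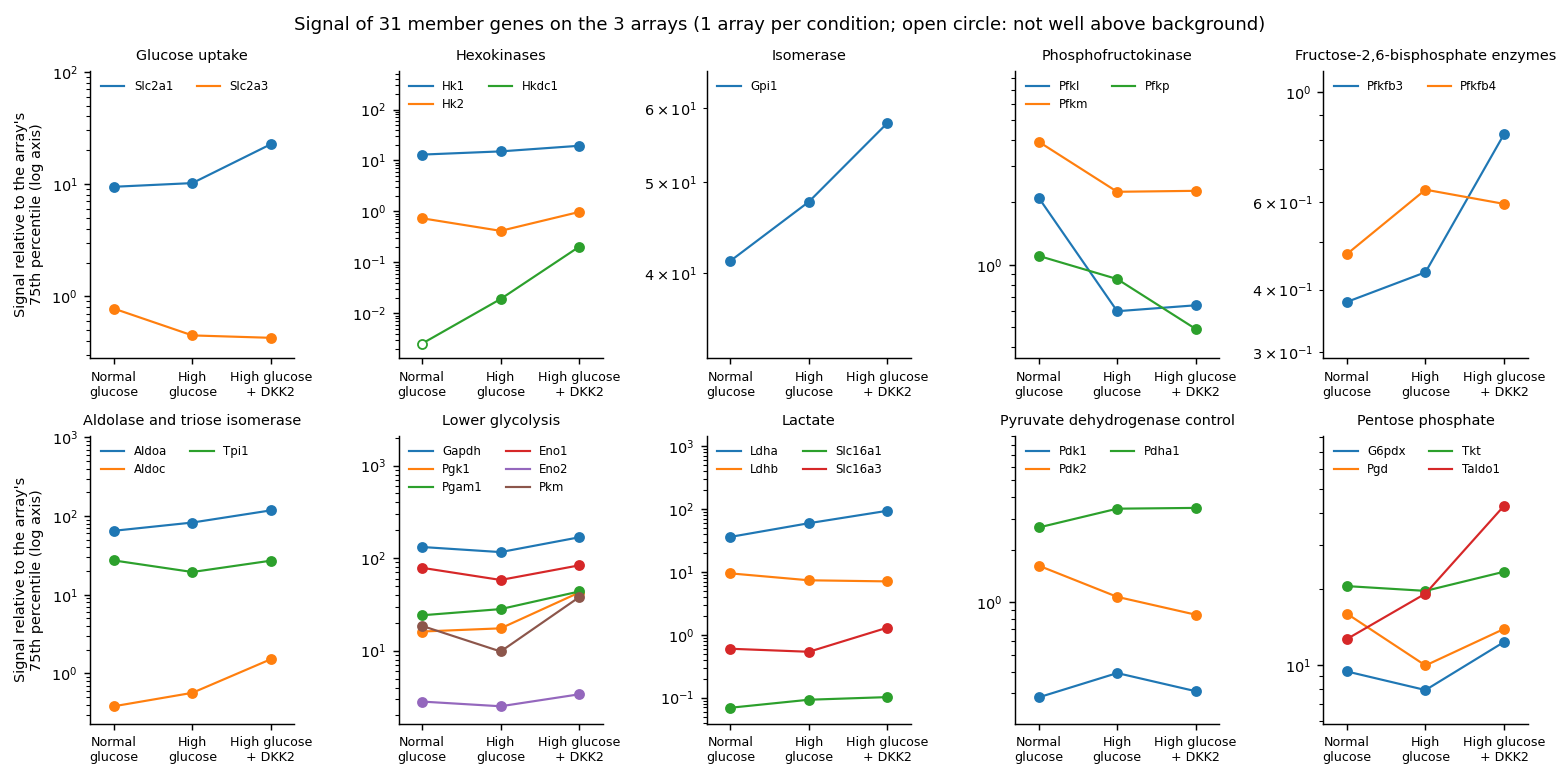
Relative signal (signal divided by the array's 75th percentile, log axis) of the 31 genes on the 3 arrays, 1 panel per role. Each point is 1 array of pooled RNA and lines join the points of 1 gene; the open circle marks Hkdc1 in normal glucose, not well above background. Aldoc, Pgk1, Pkm and Taldo1 are highest with DKK2, and Pfkl is highest in normal glucose.

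Marker genes of several cell types also differed between these arrays. The marker lists were chosen with earlier results of these data known. Between DKK2 and high glucose, 5.08% of all genes were at least 2-fold higher and 4.85% at least 2-fold lower. The summed relative signal of 8 macrophage markers was 2.36 in normal glucose, 2.72 under high glucose and 7.63 with DKK2, and 5 of the 8 were at least 2-fold higher with DKK2 than in high glucose, with a median of 1.60. That of 8 genes of proliferating cells was 12.3, 19.1 and 34.0, with 4 of 8 at least 2-fold higher and a median of 1.06. The sums of 10 endothelial markers were 4.77, 6.84 and 7.72, with 0 at least 2-fold higher, 1 lower and a median of 0.20. Sums of the other lineages were lowest with DKK2, and each sum is set mostly by its brightest probes. They were 364, 346 and 237 for 8 fibroblast genes (2 at least 2-fold lower with DKK2 than in high glucose), 82.7, 49.8 and 28.6 for 7 smooth muscle and pericyte genes (1 lower), 15.5, 23.5 and 8.08 for 6 adipocyte genes (5 lower), and 2.00, 1.57 and 0.551 for 7 skeletal muscle genes (4 of 6 measured lower). Between high and normal glucose the smooth muscle and pericyte sum was lower mainly through Acta2 (41.3 to 21.0) and Pdgfrb (19.0 to 9.76), while the median of the 7 genes was -0.00 with 3 above 0. No marker was listed at 0. The glycolytic genes that were higher with DKK2 were thus higher on the same array as macrophage and proliferation markers, and the part of either in the result was not tested. In pooled RNA, a different number of cells of a type and a different amount of RNA per cell cannot be told apart.

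The promoters of the 4 genes with the largest DKK2 differences that were at least 2-fold under both background corrections are shown because these genes were higher together. Each is the stretch of 250 bases before the most upstream start of the gene in RefSeq on build GRCm38.p6, written in the direction of the gene. Where a gene has further starts, the stretches before them are not shown. Capitals mark the core of the hypoxia response element, ACGTG or GCGTG on either strand. Hkdc1 lies on the minus strand at chr10:62422458-62422707, Pkm on the plus strand at chr9:59656326-59656575, Aldoc on the plus strand at chr11:78322823-78323072 and Pgk1 on the plus strand at chrX:106186850-106187099.
Hkdc1: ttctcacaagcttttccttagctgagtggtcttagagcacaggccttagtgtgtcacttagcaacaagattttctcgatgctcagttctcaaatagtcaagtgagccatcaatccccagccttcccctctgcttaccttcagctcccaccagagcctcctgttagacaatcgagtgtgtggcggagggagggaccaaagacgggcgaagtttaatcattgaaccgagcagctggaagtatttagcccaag
Pkm: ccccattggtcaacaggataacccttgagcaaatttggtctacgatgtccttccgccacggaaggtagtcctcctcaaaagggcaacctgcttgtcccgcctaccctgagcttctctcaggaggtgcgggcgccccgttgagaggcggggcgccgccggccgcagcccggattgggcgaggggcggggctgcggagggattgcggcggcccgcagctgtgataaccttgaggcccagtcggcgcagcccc
Aldoc: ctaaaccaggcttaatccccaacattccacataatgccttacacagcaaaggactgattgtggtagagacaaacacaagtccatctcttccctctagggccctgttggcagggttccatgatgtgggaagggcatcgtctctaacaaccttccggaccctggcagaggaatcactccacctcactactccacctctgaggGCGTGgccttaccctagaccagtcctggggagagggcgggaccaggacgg
Pgk1: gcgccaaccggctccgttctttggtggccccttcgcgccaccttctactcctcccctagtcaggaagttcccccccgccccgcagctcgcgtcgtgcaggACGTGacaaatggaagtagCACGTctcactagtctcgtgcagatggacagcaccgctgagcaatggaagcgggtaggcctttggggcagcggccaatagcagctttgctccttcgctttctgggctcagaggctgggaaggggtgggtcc

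In the stretches shown, the core was found 2 times before Pgk1, 1 time before Aldoc and 0 times before Hkdc1 and Pkm. The GC box, GGGCGG on either strand, was found before Pkm, Aldoc and Pgk1. The RefSeq table held 45 promoter windows of 30 of the 31 genes, without Slc2a3, and some genes have several windows that can overlap. The hypoxia core was in 34 of these 45 windows, or 75.6%, and in 38.6% of all 32851 windows of the same length. The GC box was in 51.1% of the member windows and 32.7% of all. The E-box CACGTG, which holds the core ACGTG within it, was in 11.1% and 6.02%. Each of these motifs thus had a larger share in the member windows, and the windows were not matched for base composition. The member windows include genes that were not higher with DKK2, and any bearing of the motifs on the DKK2 differences was not tested. These are matches of letters, and a window without a match says only that the letters are not in it.

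Glucose enters these cells through facilitative transporters. Slc2a1 encodes GLUT1, the main transporter of endothelial cells, and its relative signal was 9.45 in normal glucose, 10.2 under high glucose and 22.6 with DKK2. The 2 arrays without DKK2 were thus close together, at a log2 difference of 0.11, and the DKK2 array stood 2.22-fold above high glucose (log2 1.15). Slc2a3, which encodes the high-affinity transporter GLUT3, had a relative signal of 0.777 in normal glucose, 0.448 under high glucose and 0.427 with DKK2. It was lower in high than in normal glucose by less than 2-fold (log2 -0.79) and stayed near that level with DKK2 (log2 -0.07). The ratio of Slc2a1 to Slc2a3 on an array therefore moved by 0.90 log2 units with high glucose and by a further 1.22 with DKK2, with a technical SD of 0.29.

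Hexokinases trap glucose as glucose 6-phosphate, and the 3 hexokinase genes of the list differed from each other. Hk1, the constitutive form in many tissues, had a relative signal of 13.0, 15.1 and 19.4 in normal glucose, high glucose and DKK2. Its log2 differences were 0.21 and then 0.37, both under 2-fold. A dimmer second probe of Hk1 gave -0.50 between high and normal glucose and 0.43 with DKK2, so the direction of the first step was not settled for this gene. Hk2, the inducible form of muscle, fat and many proliferating cells, went from 0.734 in normal glucose to 0.416 in high glucose and 0.976 with DKK2. It was lower in high glucose by 0.82 log2 units and 2.35-fold higher with DKK2 than in high glucose (log2 1.23), which put the DKK2 array 0.41 above normal glucose. Against Hk1 on the same array, Hk2 moved by -1.03 log2 units in the first step and by 0.87 in the second. Over both Hk1 probes together the first of these was -0.68.

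Hkdc1 showed the largest difference of the list. It encodes a hexokinase-like protein known to phosphorylate glucose, and its single probe was not well above background in normal glucose, at a relative signal of 0.00256. It was above background in high glucose, at 0.0191, and with DKK2, at 0.202. The level with DKK2 was 10.6-fold that in high glucose (log2 3.40), or 2.20 log2 units with normexp. Against normal glucose no fold difference can be given. The lowest signal above background on the normal glucose array was 0.00630. In relative signal Hkdc1 stood 3.04-fold above it in high glucose and 32.1-fold above it with DKK2. These are not strict lower bounds, since Emcn, at 0.00824 in normal glucose, was not well above background. With normexp, whose offset draws dim genes down against normal glucose, the values were -1.27 and 0.94. The size of both, and the direction of the first, thus depended on the background correction. In the RefSeq assembly Hkdc1 lies beside Hk1 with 1 gene between them, which is not protein-coding, and Hk1 did not share its size of difference.

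Gpi1 encodes glucose 6-phosphate isomerase, the step after hexokinase. Its relative signal was 41.2 in normal glucose, 47.7 under high glucose and 57.9 with DKK2. Each step was small, 0.21 and 0.28 log2 units, and its 3 probes lay close together at 0.28 to 0.39 for DKK2 in high glucose.

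Phosphofructokinase commits sugar to glycolysis, and its 3 subunit genes all lay below 0 between high and normal glucose, 1 of them past 2-fold. Of all genes 56.4% lay above 0 there and 5.73% were at least 2-fold lower. Pfkl, the liver-type subunit, had a relative signal of 2.11 in normal glucose, 0.597 under high glucose and 0.638 with DKK2. The normal glucose array was 3.52-fold above high glucose and 3.30-fold above DKK2, while both high glucose arrays differed by 0.09 log2 units. Pfkl had 1 probe, in 1 spot per array, so no second probe could be set beside it. Pfkm, the muscle-type subunit, went from 3.92 in normal glucose to 2.25 in high glucose and 2.27 with DKK2. It had the same shape as Pfkl at a smaller size, with log2 differences of -0.80 and 0.02, and its probe was spotted 10 times per array. Pfkp, the platelet-type subunit, had a relative signal of 1.10 in normal glucose, 0.854 under high glucose and 0.491 with DKK2. Its larger step was the one with DKK2, at -0.80 against -0.37 for glucose, and its second probe gave -0.57 with DKK2 and -0.00 for glucose. Pfkp was the only gene of the list at least 1.5-fold lower with DKK2 than in high glucose, where 11.3% of all genes were. Against normal glucose Pfkp was at least 2-fold lower with DKK2 by its brightest probe (log2 -1.17) and under 2-fold by the mean of both probes (-0.87). The Pfkl to Pfkm ratio was 1.02 log2 units lower in high than in normal glucose and the Pfkp to Pfkm ratio 0.81 lower with DKK2 than in high glucose, so the subunits did not move in step.

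Pfkfb3 and Pfkfb4 encode enzymes that make and break down fructose 2,6-bisphosphate, the strongest activator of phosphofructokinase, and PFKFB3 is known as a driver of endothelial glycolysis during vessel sprouting. Pfkfb3 had a relative signal of 0.378 in normal glucose, 0.434 under high glucose and 0.822 with DKK2. It was higher with DKK2 than in high glucose by 0.92 log2 units, just under 2-fold, and higher than in normal glucose by 1.12, or 0.87 with normexp. A second, dim probe was not above background in normal glucose and gave 0.59 for DKK2 in high glucose. Pfkfb4 went from 0.472 to 0.636 and 0.595, differences of 0.43 and -0.10. The ratio of Pfkfb3 to Pfkfb4 was 1.02 log2 units higher with DKK2 than in high glucose.

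**Figure D2:**
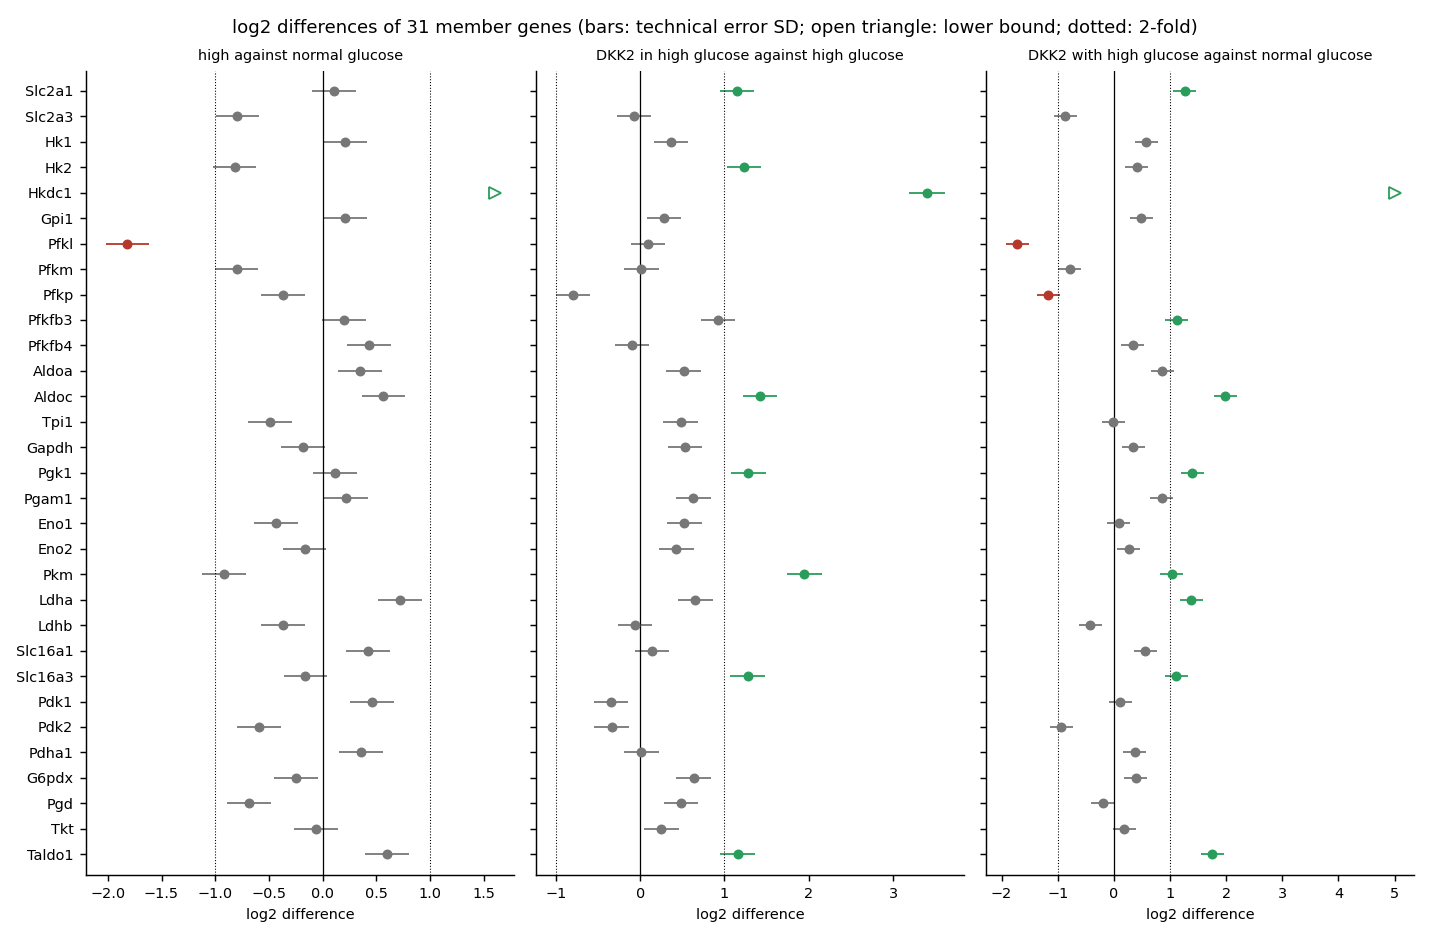
log2 differences of the 31 genes in the 3 comparisons, 1 panel each, with the scanner's technical error SD as bars and dotted lines at 2-fold. Green points are at least 2-fold higher and red points at least 2-fold lower. Open triangles set Hkdc1 against the lowest signal above background in normal glucose, which is not a strict bound. The 8 green points of the middle panel, with Hkdc1 at 3.40 farthest right, contrast with the single red point, Pfkl at -1.82, of the left panel.

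Aldolases split fructose 1,6-bisphosphate into triose phosphates, which triose phosphate isomerase interconverts. Aldoa, the ubiquitous aldolase gene, had a relative signal of 65.0 in normal glucose, 82.7 under high glucose and 118 with DKK2. Aldoc, the brain-type aldolase gene, had 0.382, 0.566 and 1.51. Both were in the order normal glucose, high glucose and DKK2, and Aldoc moved more: its DKK2 value was 2.68-fold the high glucose value (log2 1.42) where that of Aldoa was 0.51 log2 units higher. Between DKK2 and normal glucose the difference of Aldoc was 1.99, or 1.66 with normexp. Tpi1, the triose phosphate isomerase gene, had a relative signal of 27.3 in normal glucose, 19.4 under high glucose and 27.1 with DKK2. It was lower in high glucose by 0.49 and higher with DKK2 by 0.48, and the DKK2 array differed from normal glucose by -0.01. A second probe of Tpi1 gave -0.19, 0.64 and 0.45 for these differences, so the last of them was not settled.

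The 6 genes of lower glycolysis all lay above 0 with DKK2 in high glucose, under each alternative run, with a median of 0.58. Of all genes 57.6% lay above 0 there. Gapdh, which encodes the dehydrogenase that makes the first NADH of the pathway, had a relative signal of 132 in normal glucose, 116 under high glucose and 168 with DKK2 by its brightest probe. It is often used as a reference gene, and here it had 7 probes. All 7 were higher with DKK2 than in high glucose, by 0.53 to 0.94 log2 units. Between high and normal glucose the same 7 probes ranged from -1.45 to 0.42, with 3 above 0 and 4 below, so no direction can be given for that step. The 2 lowest probes had relative signals of 69.1 and 59.8 in normal glucose, 27.4 and 21.9 under high glucose, and 50.4 and 41.8 with DKK2. The highest probe had 3.95, 5.29 and 9.36.

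Pgk1 encodes phosphoglycerate kinase, the first step of glycolysis that yields ATP. Its relative signal was 16.1 in normal glucose, 17.4 under high glucose and 42.5 with DKK2. The arrays without DKK2 differed by 0.11 log2 units and the DKK2 array was 2.44-fold above high glucose (log2 1.28), a pattern shared with Slc2a1. Pgam1, the phosphoglycerate mutase gene, had a relative signal of 24.1, 28.1 and 43.6, and was 0.63 log2 units higher with DKK2 than in high glucose. For the enolase genes, Eno1, the ubiquitous form, had 78.6 in normal glucose, 58.1 under high glucose and 83.6 with DKK2, differences of -0.44 and 0.52. Eno2, the neuronal form, had 2.82, 2.51 and 3.38, differences of -0.17 and 0.43. Both enolases were lowest in high glucose alone, but for Eno2 the first step was within 1 technical SD (0.20).

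Pkm encodes the pyruvate kinase of muscle and of most other tissues outside liver and red cells, in an M1 and an M2 form that its probe is not known here to separate. Its relative signal was 18.5 in normal glucose, 9.80 under high glucose and 37.8 with DKK2. High glucose alone was thus the lowest of the 3 arrays, by 0.92 log2 units below normal glucose (1.01 with cyclic loess, past 2-fold), and DKK2 the highest, 3.86-fold above high glucose (log2 1.95). The DKK2 array was also 2.04-fold above normal glucose (log2 1.03), a difference that was 0.83 under the lowest alternative normalization and so not 2-fold there. Pkm and Hk2 were the 2 genes of the list at least 1.5-fold lower with high glucose and at least 1.5-fold higher again with DKK2. Both steps share the high glucose array, so an error of a probe on that array alone would give the same pattern. This holds for every gene described here as lowest or highest in high glucose alone.

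**Figure D3:**
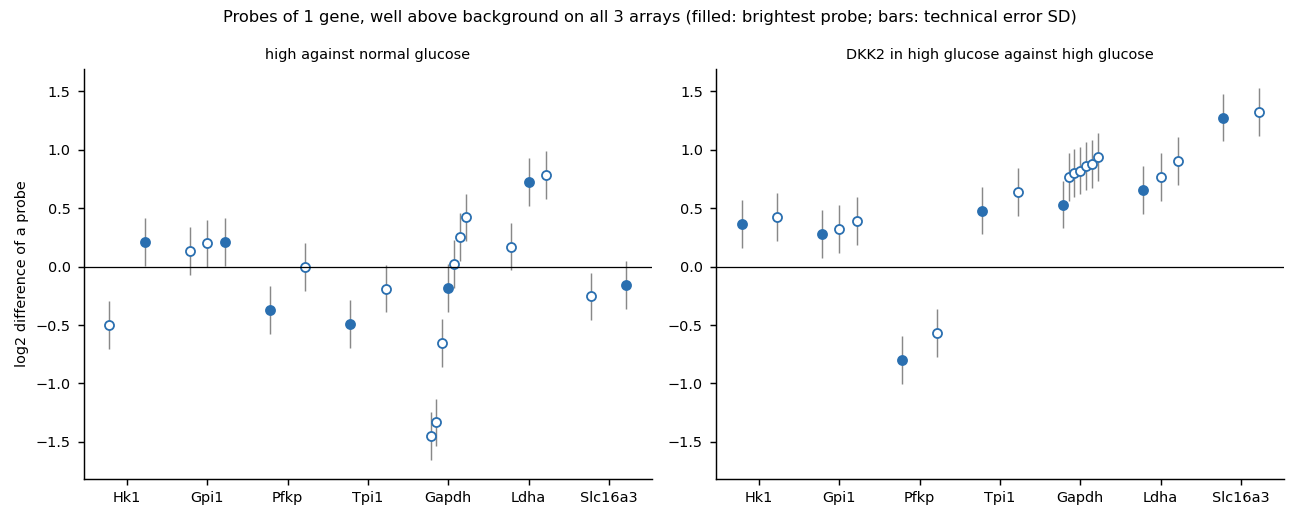
log2 differences of each probe of the 7 genes that have several probes well above background on all 3 arrays, for high against normal glucose (left) and DKK2 in high glucose against high glucose (right). Filled points are the brightest probe, which stands for the gene, and bars are the technical error SD. The 7 Gapdh probes spread from -1.45 to 0.42 on the left and from 0.53 to 0.94 on the right.

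Probes of 1 gene lay closer together for DKK2 than for glucose. Of the 7 genes with several probes well above background on all arrays, 2 had probes on both sides of 0 between high and normal glucose, Hk1 and Gapdh, and 0 had between DKK2 and high glucose. Over all 4294 such genes the shares were 44.2% and 29.9%. The median range between probes of 1 gene was 0.37 for the 7 genes in the glucose comparison and 0.16 in the DKK2 comparison, and over all genes it was 0.48 and 0.22. Members with 1 probe, among them Pfkl, Pfkm, Pkm, Slc2a3, Hk2 and Pgd, had no such check. The technical SD does not hold differences between probes.

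Lactate dehydrogenase turns pyruvate into lactate and back. Ldha, the form of glycolytic tissues, had a relative signal of 36.2 in normal glucose, 59.7 under high glucose and 94.1 with DKK2. It was higher at both steps, by 0.72 and 0.66 log2 units, and its DKK2 array was 1.38 above normal glucose. Its 3 probes ranged from 0.17 to 0.78 for the first step, from 0.66 to 0.90 for the second, and from 1.07 to 1.55 between DKK2 and normal glucose. Ldhb, the form of oxidative tissues such as heart, had 9.50, 7.37 and 7.08, lower at the first step by 0.37 and nearly level at the second (-0.06). The ratio of Ldha to Ldhb was therefore 1.09 log2 units higher in high than in normal glucose and 0.71 higher again with DKK2, 1.80 in all. Slc16a3 encodes MCT4, a lactate exporter, and had a relative signal of 0.600 in normal glucose, 0.538 under high glucose and 1.30 with DKK2. The DKK2 array was 2.42-fold above high glucose (log2 1.27), and a second probe gave 1.32. Slc16a1 encodes MCT1, which carries lactate in either direction, and its dim probe had 0.0692, 0.0928 and 0.102. Its difference between high and normal glucose was 0.42, but -0.49 with normexp, so its direction was not settled, while that with DKK2 in high glucose was 0.14. The ratio of Slc16a3 to Slc16a1 was 1.14 log2 units higher with DKK2 than in high glucose.

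The 3 genes of pyruvate dehydrogenase control had a median of -0.34 with DKK2 in high glucose. Pdk1, a kinase gene that is also a known hypoxia target, had a relative signal of 0.284 in normal glucose, 0.392 under high glucose and 0.308 with DKK2. It was highest in high glucose alone, by 0.46 above normal glucose, or 0.19 with normexp, and by 0.35 above DKK2. Pdk2, the widely expressed kinase gene, had 1.62, 1.07 and 0.848, lower at both steps by 0.59 and 0.34. Pdha1, which encodes the catalytic subunit that these kinases phosphorylate, had 2.69, 3.44 and 3.48, with differences of 0.36 and 0.01. All 3 genes were within 2-fold in each comparison, except that Pdk2, 0.94 lower with DKK2 than in normal glucose, was 1.04 lower with cyclic loess. The Pdk1 to Pdk2 ratio was 1.06 log2 units higher in high than in normal glucose, or 0.72 with normexp, and -0.01 apart with DKK2.

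The 4 pentose phosphate genes were all above 0 with DKK2 in high glucose, under each alternative run, with a median of 0.56. In that comparison 57.6% of all genes were above 0. G6pdx, which encodes the dehydrogenase that sets the flow into the NADPH-making branch, had a relative signal of 9.41 in normal glucose, 7.95 under high glucose and 12.3 with DKK2. Pgd, the gene of the next dehydrogenase of that branch, had 16.0, 9.94 and 13.9. Both were lowest in high glucose alone, by 0.24 and 0.68 log2 units below normal glucose, and higher with DKK2 by 0.63 and 0.48. In the other branch, which exchanges sugar carbons with glycolysis, Tkt (transketolase) had 20.5, 19.7 and 23.4. Taldo1 (transaldolase) had 12.7 in normal glucose, 19.2 under high glucose and 42.7 with DKK2. Tkt moved little, at -0.06 and 0.25, while Taldo1 was higher at both steps, by 0.60 and by 1.16 (2.23-fold), and its DKK2 array was 3.37-fold above normal glucose. The ratio of Taldo1 to Tkt was 0.66 log2 units higher in high than in normal glucose and a further 0.90 higher with DKK2.

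**Figure D4:**
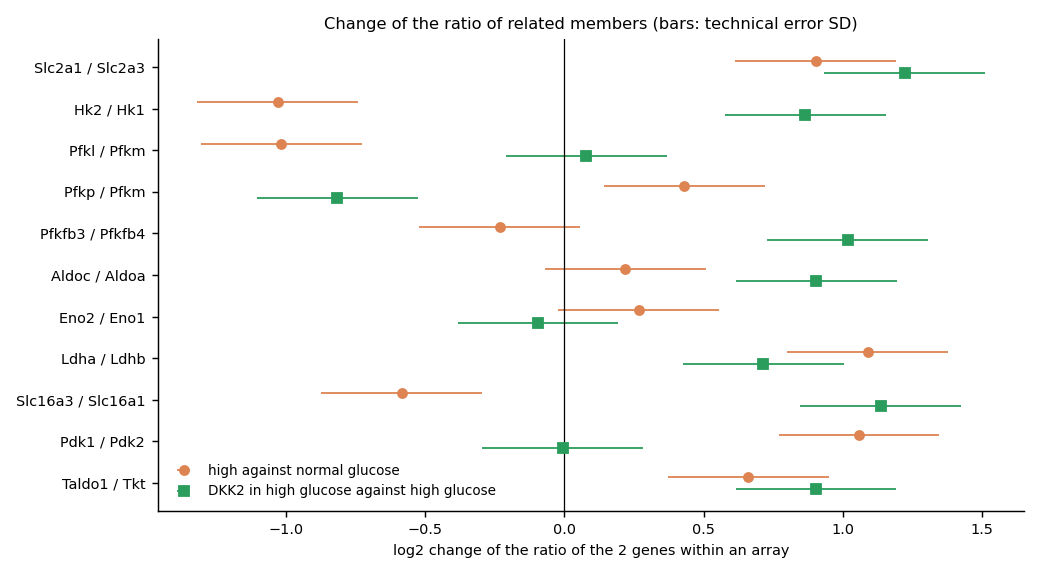
Change of the log2 ratio of 11 pairs of related genes measured on the same array, for high against normal glucose (orange circles) and for DKK2 in high glucose against high glucose (green squares), with bars of 1 technical SD (0.29). The Slc2a1 to Slc2a3, Ldha to Ldhb and Taldo1 to Tkt ratios lie to the right of 0 at both steps. Hk2 to Hk1 and Slc16a3 to Slc16a1 lie left of 0 with glucose and right with DKK2. With normexp the glucose step of Slc16a3 to Slc16a1 changed side.

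A ratio on 1 array does not depend on scaling each array by a single factor, and the pairs in the plot of ratio changes were picked after the values were seen. Which gene of a pair is the numerator sets the sign, so the number of higher ratios follows from that choice. With DKK2 in high glucose the ratio was higher by 0.71 to 1.22 log2 units in 7 of 11 pairs and lower in Pfkp to Pfkm, and the other 3 were Pfkl to Pfkm at 0.08, Eno2 to Eno1 at -0.09 and Pdk1 to Pdk2 at -0.01. The Aldoc to Aldoa ratio was 0.91 higher with DKK2. The Slc16a3 to Slc16a1 ratio, lower by 0.58 in high than in normal glucose, was 0.19 higher with normexp, so its first step has no settled direction.

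Sorted by both steps at 1.5-fold, 7 genes were within 1.5-fold between the glucose levels and higher with DKK2. They were Slc2a1, Pfkfb3, Aldoc, Pgk1, Pgam1, Slc16a3 and G6pdx. Ldha and Taldo1 were higher at both steps, and Hk2 and Pkm were lower with glucose and higher with DKK2. Another 5 genes, Slc2a3, Pfkl, Pfkm, Pdk2 and Pgd, were lower with glucose and within 1.5-fold with DKK2. A further 13 were within 1.5-fold at both steps, and Pfkp and Hkdc1 had patterns of their own, given above. How often all genes fell in these classes was not counted, and both steps share the high glucose array. In all 12 of 31 genes were at least 1.5-fold higher with DKK2 than in high glucose, where 13.1% of all genes were. Between high and normal glucose 2 of 30 were at least 1.5-fold higher and 7 at least 1.5-fold lower, where 14% and 13.6% of all genes were.

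Between DKK2 with high glucose and normal glucose, 8 of 30 genes were at least 2-fold higher, where 10.5% of 16676 genes were, and 2 at least 2-fold lower, where 10.4% were. The higher genes were Slc2a1, Pfkfb3, Aldoc, Pgk1, Pkm, Ldha, Slc16a3 and Taldo1, and the lower genes were Pfkl and Pfkp. The median of the 30 genes was 0.38 against 0.12 over all genes, and 22 lay above 0, where 56.5% of all genes did, while Tpi1, Eno1, Slc16a1, Pdk1 and Tkt changed side under an alternative. At 1.5-fold 10 were higher and 5 lower, where 24.2% and 19.2% of all genes were. With normexp 6 were at least 2-fold higher and 2 at least 2-fold lower, where 5.61% and 24.1% of all genes were. Pfkfb3 and Slc16a3 were then not among the higher genes, with values of 0.87 and 0.98. The median with normexp was 0.37 where that of all genes was -0.25. This comparison is the sum of both steps on the same arrays and adds no independent measurement.

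**Figure D5:**
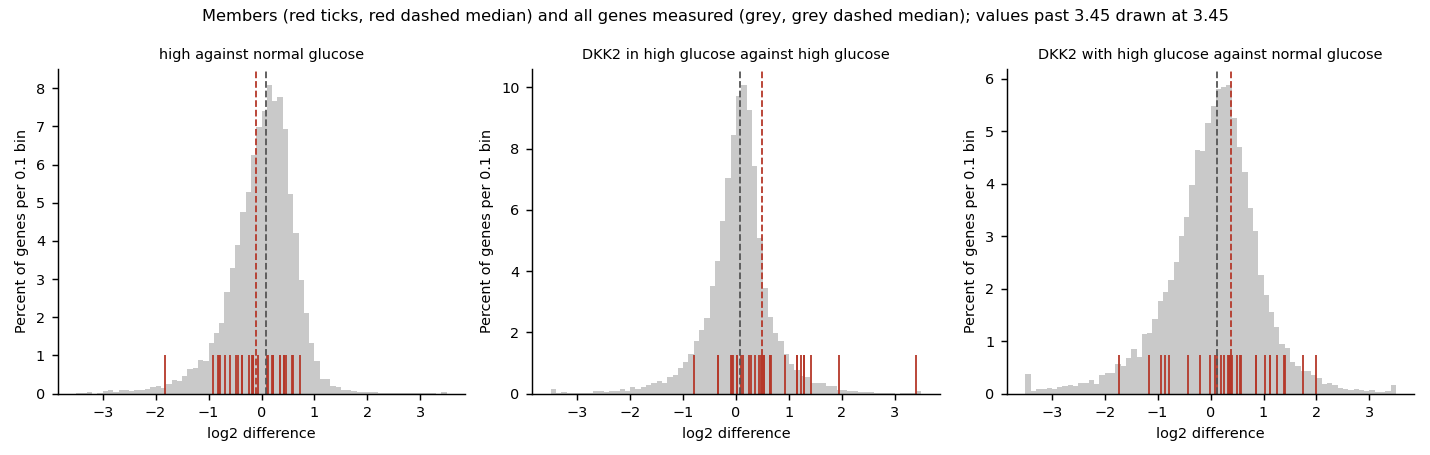
Distribution of log2 differences over all genes measured on both arrays (grey bars, percent of genes per bin of 0.1) with the genes of the list as red ticks, in 3 panels by comparison. Dashed lines are the medians of all genes (grey) and of the list (red), at 0.09 and -0.11 on the left, 0.08 and 0.48 in the middle and 0.12 and 0.38 on the right.

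A wider list of 48 genes, made up of other isoforms, transporters, regulators and gluconeogenic enzymes, had 47 on the array. With DKK2 in high glucose 44 were measured, 4 were at least 2-fold higher and 2 at least 2-fold lower, where 5.08% and 4.85% of all genes were, and the median was 0.14 against 0.08. Between high and normal glucose 0 of 41 were at least 2-fold higher and 2 at least 2-fold lower, where 2.67% and 5.73% of all genes were, with a median of 0.03 against 0.09. Between DKK2 and normal glucose the median was 0.16 against 0.12, and of 41 genes 3 were at least 2-fold higher and 5 at least 2-fold lower, where 10.5% and 10.4% of all genes were. Of the 4 higher with DKK2 in high glucose only Tigar, whose product breaks down fructose 2,6-bisphosphate, was also at least 2-fold higher with normexp. Its relative signal was 0.650 in normal glucose, 0.494 under high glucose and 1.02 with DKK2, a difference of 1.04 with DKK2.

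Transporters of the wider list included genes that were lower. Slc2a9, a urate transporter of the glucose transporter family, had a relative signal of 0.493, 0.256 and 0.0767 in normal glucose, high glucose and DKK2, and was 1.74 log2 units lower with DKK2 than in high glucose. Slc16a7 encodes the monocarboxylate transporter MCT2 and had 1.26, 0.288 and 0.200, which is 2.13 lower in high than in normal glucose. Emb encodes embigin, a partner protein of monocarboxylate transporters, and had 7.90, 8.50 and 3.86, which is 1.14 lower with DKK2 than in high glucose. Beside them, Slc16a3 was within 2-fold between the glucose levels and higher with DKK2. Gapdhs, the sperm-type homologue of Gapdh, was 1.78 lower in high than in normal glucose from a dim signal of 0.0599 in normal glucose. Between DKK2 and normal glucose the muscle enolase gene Eno3 was 1.38 higher, the pyruvate dehydrogenase subunit gene Pdhb 1.03 higher and the gluconeogenic gene Pck2 1.12 lower.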

How the data were processed

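Gene expression was measured on 3 one-colour (Cy3) Agilent mouse arrays, 1 per condition, grouped by the sample titles. Per the labels, each array held a pool from 3 samples. Per the file headers, the arrays lay on one slide and were quantified with Feature Extraction 11.5.1.1 on a design annotated to mm9, and the deposited files hold the processed intensity of each spot, on a linear scale with background subtracted. The deposited value table also holds intensity: for 99.2% to 99.4% of probes its values match the spot-averaged processed signal to within a fraction of 0.001, unlogged, unscaled and uncentred.

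Each array had 44397 spots. The 1377 control spots were left out, as were outlier spots (110 for normal glucose, 115 for high glucose, 136 for DKK2). No spot was saturated. The values are log2 of the processed signal, averaged over the spots of a probe, minus the array's 75th percentile. Of the 39429 probes, 76.6%, 84.7% and 83.9% were well above background, taken as at least 50% of a probe's spots. Probes were named by RefSeq accession through a gene table of assembly GRCm38.p6, used for names, gene order and promoters: 27508 probes had 1 symbol and 11921 none there. Each gene is represented by its brightest probe, provided that it exceeded background on 1 or more arrays, and a difference needs both arrays above background. The call was 2-fold, with no test, since each condition had 1 array. For a bound, the bright array was set against the dim array's floor (its lowest signal well above background) or the probe's own dim signal, whichever was higher. The bound is not strict, since some probes brighter than that floor were not well above background. The number of arrays limits the precision. Spots of 399 probes placed 10 times per array had a median SD of 0.0729 to 0.0811 log2 units.

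The members, the wider and marker lists and the rules were chosen with earlier results of these data known. Values are given for all 31 members. Of the wider list, genes at least 2-fold apart in the chosen setting and with normexp are named. Promoters were taken for the 4 members with the largest DKK2 difference at least 2-fold in both settings. Alternatives were normexp (offset 50, on median spot and background signals), cyclic loess, quantile normalization, median scaling, the deposited table, averaging a gene's probes, keeping dim probes, requiring a signal of 100 or more on every array (the stricter filter), and 1.5-fold and 3-fold rules. Ratios of related genes were added after seeing the data. The counting was tested on simulated data. Software comprised Python 3.11.15 (numpy 2.4.6, pandas 2.3.3, matplotlib 3.10.9) and R 4.3.3 (limma 3.58.1).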

Additional observations from a re-analysis of the deposited data

How the results depend on the processing

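With 1 array per condition, no replicate could be left out, and technical error is the only error measured. No paired analysis was possible because each condition has 1 array. The medians of the 31 genes kept their sign under all 8 alternatives to the processing: -0.18 to -0.06 for high against normal glucose, 0.37 to 0.51 for DKK2 in high glucose and 0.24 to 0.39 for DKK2 against normal glucose. Normexp moved the median of all genes from 0.09 to -0.26 in the first comparison and from 0.12 to -0.25 in the last, with 171 genes at least 2-fold higher and 3945 lower (448 and 960 otherwise), and 936 and 4017 (1744 and 1727 otherwise). In the DKK2 comparison it gave 505 and 477 (905 and 865 otherwise). Without the filter on dim probes the counts of all genes were 1103 and 2128, 1307 and 1350, and 2674 and 2346. With the stricter filter they were 219 and 582, 394 and 492, and 1059 and 1138. Of the 31 genes, between high and normal glucose, 1 was at least 2-fold higher without the filter (Hkdc1, whose normal glucose value is at background) in place of 0, and 2 were lower with cyclic loess (Pkm added) in place of 1. With the 1.5-fold rule these counts were 2 and 7. With DKK2 in high glucose, 2 were higher by the 3-fold rule in place of 8, and 1 was lower by the 1.5-fold rule in place of 0. Against normal glucose, 2 were higher by the 3-fold rule in place of 8. There, 1 was lower in place of 2 by the mean over probes and by the 3-fold rule, and 5 by the 1.5-fold rule. The share of all genes past 3-fold was not counted. The 8 genes higher with DKK2 in high glucose kept their calls under every alternative that gave a value; Hkdc1 had none under the stricter filter. Of 10 calls against normal glucose, 6 were kept under all. Pfkp was lost with the mean over probes, Pfkfb3 and Slc16a3 with normexp, and Pkm with quantile normalization and cyclic loess. Pdk2 was added to the lower genes there with cyclic loess (-1.04).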
